A study of Mus musculus with 32 samples.

Results

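Glis3, Ror1, Prkg1 and Gas7 are 4 long mouse genes, taken from 21887 annotated protein-coding genes. They were chosen on the number of ATAC-seq peaks they gained in the SSEA1+ population with CTCF shRNA against the SSEA1+ population with control shRNA, so their values in that pair are a description and carry no test. ATAC-seq maps open chromatin by inserting sequencing adapters into accessible DNA. A peak was assigned to a gene when its centre lay in the gene body or within 10 kb of it. Over the 10 lists of day 0 and sorted cells, these genes held 325 of 267322 distinct sites. Prkg1 had 134 of them, Glis3 80, Ror1 56 and Gas7 55.

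The study followed mouse embryonic fibroblasts during reprogramming to pluripotency with the factors OSKM (Oct4, Sox2, Klf4 and Myc). CTCF, a zinc-finger DNA-binding protein that bounds chromatin loops, was knocked down or overexpressed. Smarca5, an ISWI-type remodelling ATPase, was knocked down in some groups. The 32 samples are represented by 15 peak lists, 1 per group. Sorted cells came from a doxycycline-inducible lentiviral OSKM system, and vitamin C was in the reprogramming medium of all cultures.

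The CTCF shRNA groups each had a control shRNA group of the same kind. They were day 0 cells (2 samples per group), Thy1+ cells of days 3, 6 and 9 (3 samples per group), SSEA1-Thy1- cells and SSEA1+ cells of days 6 and 9 (2 samples per group each), and GFP+ cells of day 12 (2 samples per group). Thy1 marks fibroblasts, SSEA1 marks cells that have advanced towards pluripotency, and the fibroblasts used carry an Oct4-GFP reporter. At day 10, unsorted OSKM cells carried overexpressed CTCF with Smarca5 shRNA, overexpressed CTCF alone, or the control of that day. At day 12, unsorted cells carried Smarca5 shRNA or control shRNA. Day 10 and day 12 groups had 2 samples each. Days are pooled within a sorted list, so no day can be read on its own, and a list gives neither read depth nor peak height. With 1 list per group there was no replicate check. The intervals given are exact Clopper-Pearson 95% intervals that cover counting error over sites only. In bulk cells, a peak missing because few cells were open cannot be told apart from one missing because of weak signal in every cell, and the degree of CTCF knockdown is not measured by these lists.

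The merged lists held 183640 peaks with CTCF shRNA and 135749 with control shRNA in SSEA1+ cells. The 8 other lists of the series from day 0 and sorted cells held 91337 to 213386 peaks. The day 10 lists held 66321 to 72414 peaks, and the day 12 lists 44279 and 43618. These 3 sets of lists do not share peak positions, so counts are compared only within a set.

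The 4 genes have different roles. Glis3 encodes a Krüppel-like zinc-finger transcription factor of the GLI-similar family, known from pancreatic beta cells, thyroid and kidney. Ror1 encodes a receptor tyrosine kinase-like receptor for Wnt5a that is active in embryonic mesenchyme. Prkg1 encodes a cGMP-dependent protein kinase that acts below nitric oxide and relaxes smooth muscle. Gas7, growth arrest-specific 7, encodes an F-BAR protein that links membranes to actin and was named from growth-arrested fibroblasts. In fibroblasts many distal elements of mesenchymal genes are open, and they close as cells become pluripotent.

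The gene starts are shown first because they frame the result: each start below had an open site beside it in all 10 day 0 and sorted lists, and none of the sites gained in these 3 genes lay within 1 kb of one. The sequences are the 250 bases before each annotated start, from RefSeq on GRCm38.p6, written 5′ to 3′ on the gene's own strand. Of the 4 genes, 3 matched the promoter table, with 4 starts. They cover chr19:28680078-28680327 on the minus strand for Glis3, chr4:100095541-100095790 on the plus strand for Ror1, and chr19:31765034-31765283 and chr19:31664371-31664620, both on the minus strand, for Prkg1. Capitals mark matches on either strand to AGNGGGCGC, a core of the CTCF motif, to the GC box GGGCGG, or to the AP-1 motif TGANTCA.
Glis3: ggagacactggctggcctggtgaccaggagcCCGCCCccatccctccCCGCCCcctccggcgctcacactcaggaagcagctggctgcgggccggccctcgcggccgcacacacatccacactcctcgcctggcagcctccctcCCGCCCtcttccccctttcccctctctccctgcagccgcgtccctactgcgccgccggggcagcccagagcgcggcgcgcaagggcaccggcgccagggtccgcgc
Ror1: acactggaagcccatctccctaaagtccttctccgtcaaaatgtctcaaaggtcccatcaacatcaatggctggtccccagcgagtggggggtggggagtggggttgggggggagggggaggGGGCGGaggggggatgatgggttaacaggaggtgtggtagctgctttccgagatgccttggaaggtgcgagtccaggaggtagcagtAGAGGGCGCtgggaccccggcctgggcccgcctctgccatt
Prkg1, start 1: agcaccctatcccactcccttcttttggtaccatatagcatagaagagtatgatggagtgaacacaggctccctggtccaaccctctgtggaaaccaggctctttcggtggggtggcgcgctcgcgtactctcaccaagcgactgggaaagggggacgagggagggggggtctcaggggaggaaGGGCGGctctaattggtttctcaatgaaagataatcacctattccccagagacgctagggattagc
Prkg1, start 2: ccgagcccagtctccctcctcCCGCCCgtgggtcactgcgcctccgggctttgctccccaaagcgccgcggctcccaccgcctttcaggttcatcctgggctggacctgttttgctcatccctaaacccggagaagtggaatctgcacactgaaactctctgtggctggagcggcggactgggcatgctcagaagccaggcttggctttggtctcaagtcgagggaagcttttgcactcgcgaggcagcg

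The CTCF core occurred once, in Ror1, and 2.45% of all 32851 promoter windows of this length hold it. The GC box occurred 3 times in Glis3 and once in each of the other windows, against 32.7% of all windows with at least 1. The AP-1 motif was in none of these windows and in 6.75% of all of them. The motifs were chosen after the sequences were seen, and a match is only a run of letters. GC content was 75.6% in Glis3, 62.4% in Ror1, and 55.2% and 62.8% at starts 1 and 2 of Prkg1.

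At the Glis3 start a peak centred 47 bp downstream covered the start in all 10 day 0 and sorted lists. At the Ror1 start the nearest peak was centred 323 bp downstream in all 10 lists and did not reach the printed window. Start 1 of Prkg1 was covered by a peak centred 139 bp downstream in all 10, and start 2 had a peak centred 253 bp upstream that overlapped its printed window in all 10. These sites did not differ between the CTCF shRNA and control lists. For Gas7, no list had a peak centred within 1 kb of either end of the annotated gene.

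In SSEA1+ cells the 4 genes together had 209 peaks with CTCF shRNA and 86 with control shRNA, a log2 ratio of 1.28, while the log2 ratio of the whole lists was 0.44. They gained 129 sites, open only with CTCF shRNA, and lost 6, open only with control shRNA, of 215 open in either list. The gained share was 60.0% (interval 53.1 to 66.6%), against 30.2% over the whole list. All 4 passed the call rule, a fold of at least 1.5 and a difference of at least 3 peaks in genes with at least 5 peaks in 1 of the 2 lists. Of all genes tested in SSEA1+ cells, 20.2% were called higher and 0.203% lower. Since the genes were chosen on this contrast, nothing is read from that count.

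Glis3 had 60 peaks in SSEA1+ cells with CTCF shRNA and 25 with control shRNA, and it gained 37 sites and lost 2. Ordered as day 0, Thy1+, SSEA1-Thy1-, SSEA1+ and GFP+ cells, its CTCF shRNA lists had 55, 63, 42, 60 and 19 peaks and its control lists 56, 65, 38, 25 and 14. The CTCF shRNA count in SSEA1+ cells was therefore within 5 peaks of its day 0 count, and the control count was below that of the SSEA1-Thy1- cells.

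Ror1 had 33 peaks in SSEA1+ cells with CTCF shRNA and 11 with control shRNA, the highest fold of the 4 genes (3.0), with 23 sites gained and 1 lost. Its CTCF shRNA series ran 41, 43, 22, 33 and 14 peaks from day 0 to GFP+ cells, and its control series 41, 43, 18, 11 and 9. The pairs were equal at day 0 and in Thy1+ cells, and the counts parted in the other populations.

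Prkg1, the longest of the 4, had 74 peaks in SSEA1+ cells with CTCF shRNA and 34 with control shRNA, and gained 42 sites and lost 2. Its CTCF shRNA series ran 103, 104, 57, 74 and 24 peaks, and its control series 102, 97, 45, 34 and 20. In SSEA1+ cells both of its counts were below those at day 0, whereas Glis3 with CTCF shRNA was not below its day 0 count.

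Gas7 had 42 peaks in SSEA1+ cells with CTCF shRNA and 16 with control shRNA, and gained 27 sites and lost 1. The CTCF shRNA series of Gas7 ran 47, 49, 31, 42 and 13 peaks, and the control series 47, 51, 31, 16 and 13. Its pairs were equal at day 0, in SSEA1-Thy1- and in GFP+ cells, so the excess was seen in the SSEA1+ pair alone among these 5.

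**Figure D1:**
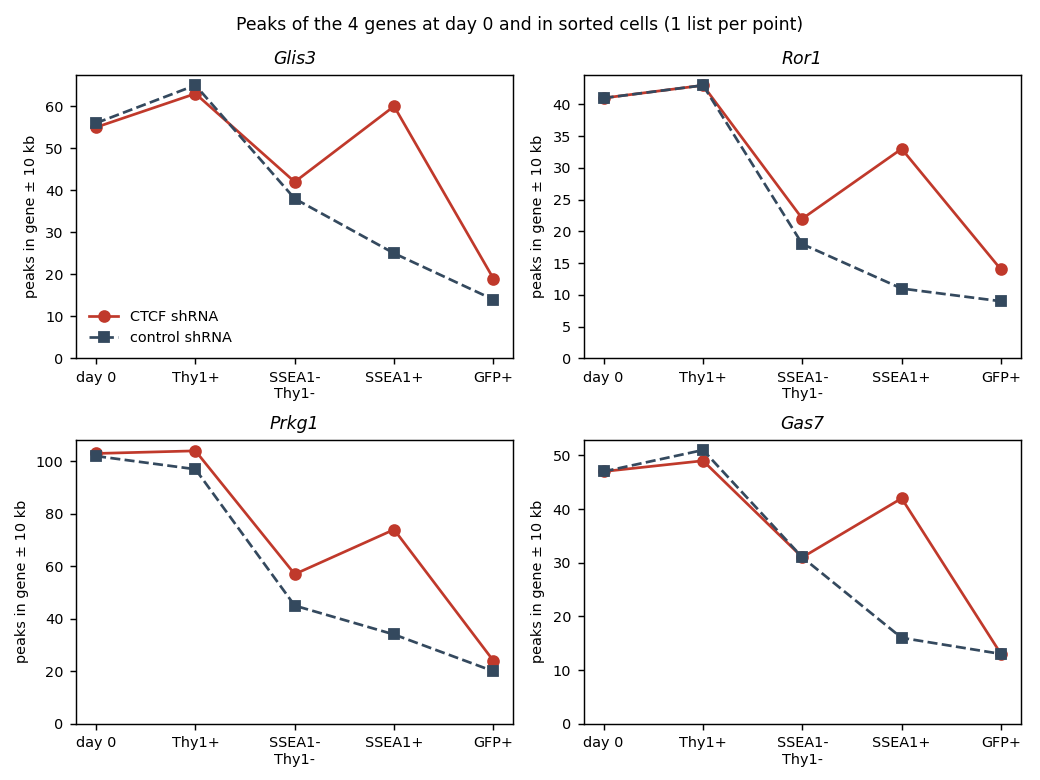
Number of peaks (y axis) in each of the 4 genes ± 10 kb, across day 0, Thy1+, SSEA1-Thy1-, SSEA1+ and GFP+ cells (x axis), with CTCF shRNA and with control shRNA, 1 pooled list per point. The lines lie close at day 0 and in Thy1+ cells and are furthest apart in SSEA1+ cells, where the sums are 209 and 86.

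The label of these genes as those gaining most holds in part. By the number of sites gained in SSEA1+ cells, Prkg1 ranked 7, Glis3 12, Gas7 50 and Ror1 98 among all genes. Rbms3 (51 sites), Pde4d (50), Gpc6 (46), Lpp (45), Macrod2 (44) and Arhgap26 (43) gained more than Prkg1. By fold among the 2868 genes with at least 10 control peaks, Ror1 ranked 1, Gas7 7, Glis3 14 and Prkg1 39. At the lower edge, Ror1 was among 11 genes that gained 23 sites, which included Farp1, Fhit, Immp2l, Nfia, Rere and Zmiz1. Genes that gained 22 included Adam12, Cald1, Celf2 and Ctif. Gene length enters such counts: the median was 1 gained site over all genes and 10 over the 990 genes of at least 200 kb.

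The 129 sites gained in SSEA1+ cells were traced to the other populations, whose lists the choice of genes did not use but which come from the same cultures and share peak positions. Most were sites of the starting cells. In the day 0 lists 116 were open with CTCF shRNA and 115 with control shRNA, the control share being 89.1% (interval 82.5 to 93.9%) against 81.6% of all sites gained in SSEA1+ cells. In the Thy1+ lists 116 were open with CTCF shRNA and 117 with control shRNA, a control share of 90.7% against 88.9% over the whole list. Both controls, day 0 and Thy1+, were open at 109 of the 129, and neither at 6.

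By gene, the day 0 control list was open at 33 of 37 gained sites in Glis3, 22 of 23 in Ror1, 35 of 42 in Prkg1 and 25 of 27 in Gas7. The Thy1+ control list was open at 32, 22, 38 and 25 of them, in the same order. Each gene alone thus showed the same picture of sites already open before or early in reprogramming.

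In SSEA1-Thy1- cells, 60 of the 129 sites were open with CTCF shRNA (46.5%) and 45 with control shRNA (34.9%), against whole-list shares of 44.1% and 38.0%. Of the 129, 35 were open in both of these lists, 25 with CTCF shRNA alone, 10 with control shRNA alone and 59 in neither. Among those 59, 55 were open in the day 0 control list. They made up 42.6% of the 129 sites, and the same pattern made up 40.3% of all sites gained in SSEA1+ cells. The order of the populations is that of the sort markers, and it does not show that the cells of one list gave rise to those of the next.

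In GFP+ cells, 18 of the 129 were open with CTCF shRNA (14.0%) and 9 with control shRNA (6.98%), against 19.3% and 12.3% of all gained sites. With CTCF shRNA, 6 were in Glis3, 4 in Ror1, 1 in Prkg1 and 7 in Gas7, and with control shRNA 1, 3, 1 and 4. Prkg1, with the most gained sites, thus had the fewest of them open in GFP+ cells with CTCF shRNA.

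Across the 4 control lists other than SSEA1+, 67 of the 129 sites (51.9%) were open at day 0 and in Thy1+ cells alone. That pattern made up 46.5% over the whole list. A further 34 (26.4%) were also open in SSEA1-Thy1- cells. Open in none of these controls were 4 sites (3.10%). They were chr19:28299689-28300088 and chr19:28545158-28545557 in Glis3, and chr19:30591218-30591617 and chr19:31697083-31697482 in Prkg1. The first was listed with CTCF shRNA in SSEA1+ cells and in no other of the 10 lists. The last was also open with CTCF shRNA at day 0 and in Thy1+ cells.

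**Figure D2:**
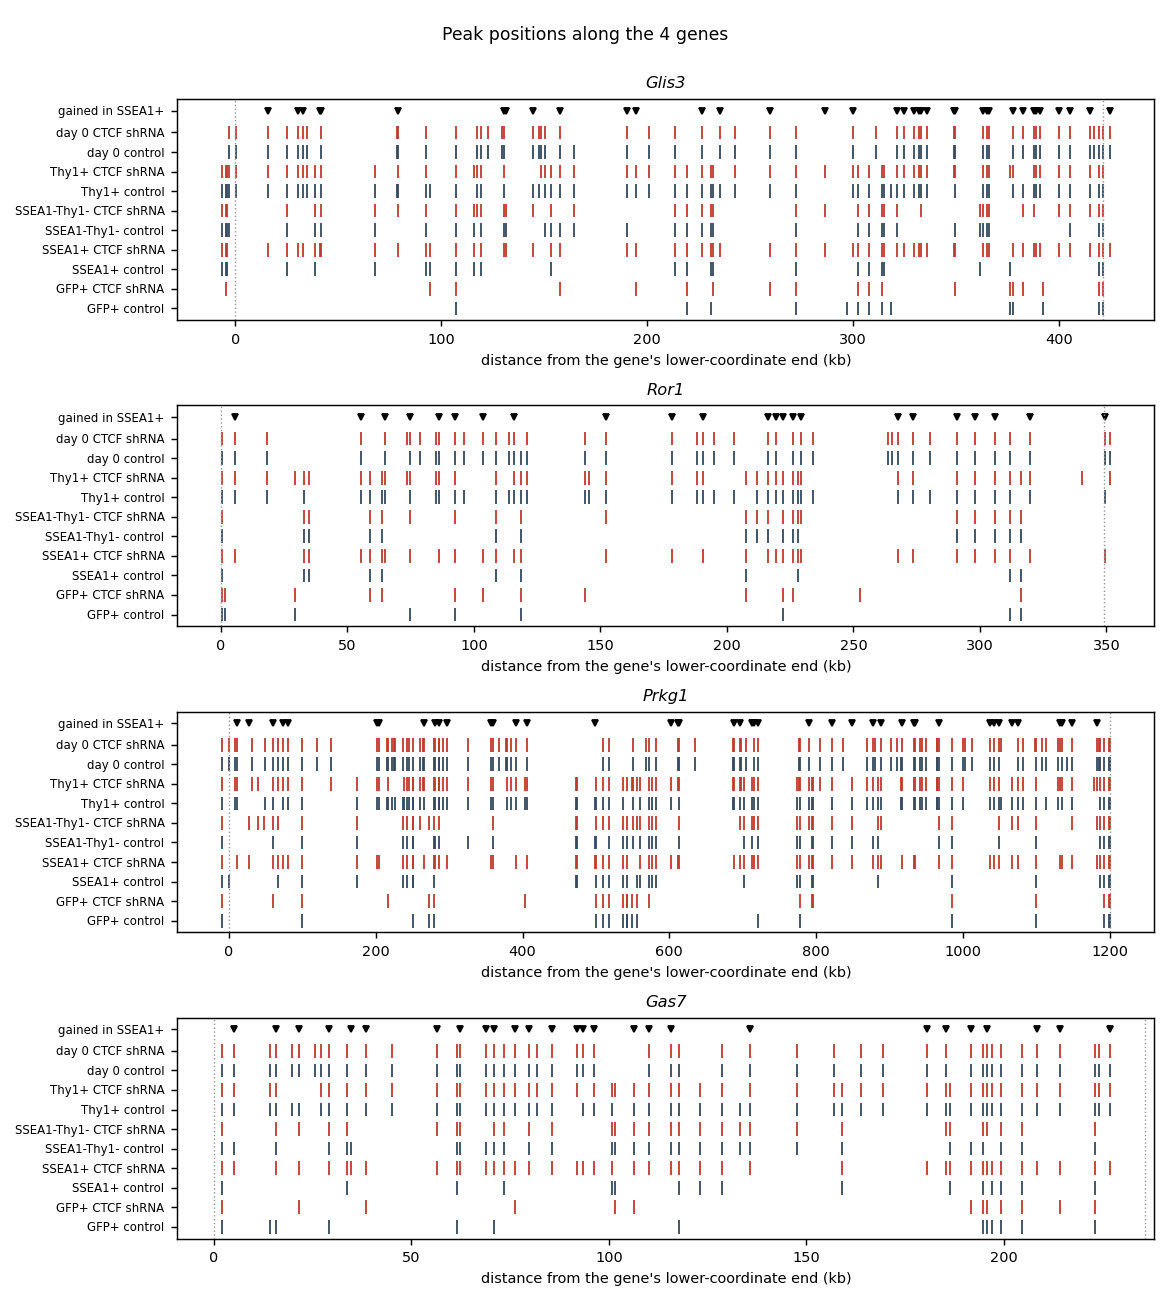
Peak positions along each gene, as distance in kb from the gene's lower-coordinate end (x axis), with 1 row per list, CTCF shRNA above control shRNA within each pair, and triangles for the sites gained in SSEA1+ cells. Dotted lines mark the gene ends. Of the 129 triangles, 115 stand above a tick in the day 0 control row.

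The same data can be read from the 246 sites open in the day 0 control list. SSEA1+ cells with CTCF shRNA held 156 of them (63.4%, interval 57.1 to 69.4%), and SSEA1+ cells with control shRNA held 42 (17.1%, interval 12.6 to 22.4%). Over the whole list these shares were 68.5% with CTCF shRNA and 38.4% with control shRNA. The 4 genes were thus close to the whole list with CTCF shRNA and below it with control shRNA. This contrast was used to choose them.

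In the other populations the pairs lay closer. Thy1+ cells held 198 of the 246 with CTCF shRNA (80.5%) and 206 with control shRNA (83.7%). SSEA1-Thy1- cells held 97 (39.4%) with CTCF shRNA and 82 (33.3%) with control shRNA, below the whole-list shares of 50.5% and 48.8%. GFP+ cells held 40 (16.3%) with CTCF shRNA and 36 (14.6%) with control shRNA, again below the whole-list shares of 36.2% and 32.4%. With CTCF shRNA, more of these sites were listed in SSEA1+ cells than in SSEA1-Thy1- cells; with control shRNA, fewer were.

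Glis3 held 41 of its 56 day 0 sites in SSEA1+ cells with CTCF shRNA and 8 with control shRNA. Ror1 held 26 and 4 of 41 in the same order. Prkg1 held 53 with CTCF shRNA and 19 with control shRNA of 102, and Gas7 36 and 11 of 47. Peaks that were not open in the day 0 control made up 53 of 209 (25.4%) in SSEA1+ cells with CTCF shRNA and 44 of 86 (51.2%) with control shRNA. Over the whole list these shares were 42.6% with CTCF shRNA and 56.5% with control shRNA. Of the 6 sites lost in SSEA1+ cells, 1 was open at day 0 and 3 in GFP+ control cells.

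**Figure D3:**
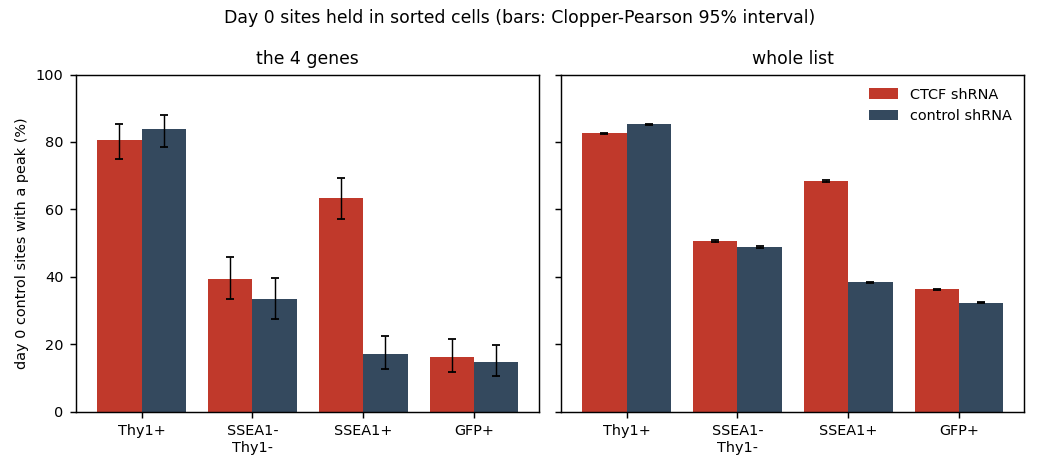
Percentage of the sites of the day 0 control list (246 in the 4 genes) that were open in each later population (y axis), with CTCF shRNA and with control shRNA, for the 4 genes and for the whole list. In SSEA1+ cells the 4 genes held 63.4% with CTCF shRNA and 17.1% with control shRNA, against 68.5% and 38.4% for the whole list.

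The gained sites were spread through the gene bodies. In the 3 genes with an annotated start in the table, none lay within 1 kb of it, and the nearest was 3.46 kb away in Glis3, 5.52 kb in Ror1 and 18.2 kb in Prkg1. In Glis3, on chromosome 19 at 28258851 to 28680265, 21 of 37 lay in the last of 3 equal parts of the gene by rising coordinate. That part holds its start, and it also held 24 of the 56 day 0 control peaks. In SSEA1+ cells it held 27 of 60 peaks with CTCF shRNA and 8 of 25 with control shRNA. In Ror1, on chromosome 4 at 100095791 to 100444806, the 3 equal parts held, from its start onwards, 8, 8 and 6 of 23. In Prkg1, on chromosome 19 at 30564487 to 31765268, they held 14, 11 and 17 of 42 by rising coordinate, and in Gas7, on chromosome 11 at 67453257 to 67688992, they held 11, 9 and 7 of 27. No exon annotation was used, so sites are not divided into exonic and intronic ones.

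Runs of neighbouring gained sites are given as positions only, since most sites of these genes were gained by their choice. The longest run without an interruption was 8 sites over 28.2 kb in Glis3, at chr19:28580089-28608725. In Ror1 it was 6 sites over 76.7 kb at chr4:100324893-100401958, in Prkg1 7 sites over 125 kb at chr19:30844896-30970193, and in Gas7 6 sites over 20.1 kb at chr11:67529302-67549817. Every site of these 4 runs was open in both day 0 lists. In the SSEA1-Thy1- control list, 2 of 8 were open in the Glis3 run, 3 of 6 in Ror1, 3 of 7 in Prkg1 and 2 of 6 in Gas7.

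The gaps between peaks in SSEA1+ cells follow from the peak counts on which the genes were chosen. The largest gap in SSEA1+ cells was 32.3 kb with CTCF shRNA and 60.2 kb with control shRNA in Glis3, and 38.5 kb and 89.0 kb in Ror1. In Prkg1 it was 75.6 kb with CTCF shRNA and 194 kb with control shRNA, and in Gas7 23.2 kb and 31.6 kb. The median gap was shorter with CTCF shRNA in all 4, by least in Prkg1 (9.68 kb against 11.9 kb with control shRNA).

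Gained sites were also counted per length. The genes were chosen for gained sites in this pair and the regions beside them were not, so these densities are a description only. Glis3 gained 8.38 sites per 100 kb against 2.20 in the 500 kb on each side, Ror1 6.23 against 2.10, and Gas7 10.6 against 3.10. Prkg1 gained 3.44 per 100 kb, about as many as its surroundings at 3.40. Part of the Gas7 count is shared in annotation: 2 of its 27 gained sites also lie in Glp2r, which overlaps it, whereas Cstf2t, inside Prkg1, held none.

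**Figure D4:**
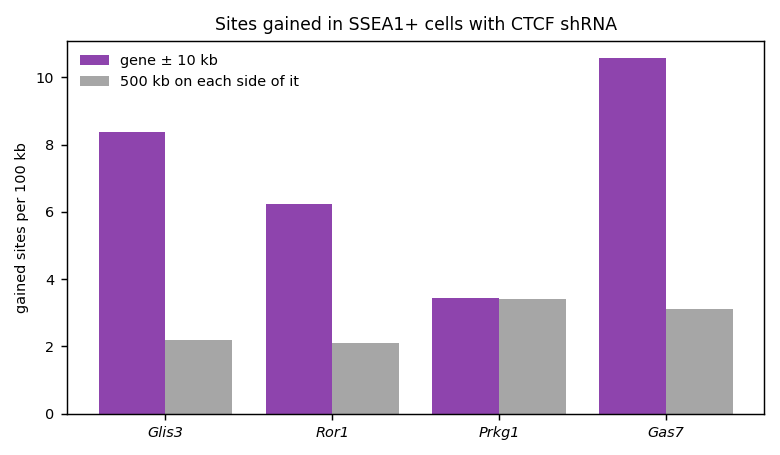
Sites gained in SSEA1+ cells with CTCF shRNA per 100 kb (y axis) in each gene ± 10 kb and in the 500 kb on each side of it. Glis3, Ror1 and Gas7, chosen for gained sites in this pair, lie above their surroundings, and Prkg1 lies level with them.

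Of the 8 nearest protein-coding neighbours, 6 had enough peaks for the call rule, and 3 of them were called higher in SSEA1+ cells (Rfx3, Pgm1 and Ube2u) and none lower, against 20.2% of all genes called higher. Beside Glis3, Rfx3 had 17 peaks with CTCF shRNA and 11 with control shRNA, and Slc1a1 6 and 4. Beside Ror1, Pgm1 had 5 with CTCF shRNA and 2 with control shRNA, and Ube2u 9 and 6. Beside Prkg1, Dkk1 had 5 in each list and A1cf 4 with CTCF shRNA and 3 with control shRNA. Beside Gas7, Myh13 had 8 with CTCF shRNA and 7 with control shRNA, and Rcvrn had none.

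In the 4 other CTCF shRNA pairs, which were not used to choose the genes, differences were small or mixed. At day 0 the genes gained 4 sites and lost 4 of 250, and none of the 4 was called, against 0.244% of all genes called higher and 0.181% lower. In Thy1+ cells they gained 29 and lost 26 of 285. The gained share was 10.2% (interval 6.92 to 14.3%), below the 15.2% of the whole list, and the interval of the lost share, 9.12% (6.05 to 13.1%), includes its 6.95%. None of the 4 was called in Thy1+ cells, where 3.3% of all genes were called higher and 0.33% lower.

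In SSEA1-Thy1- cells the genes gained 33 sites and lost 13 of 165. The interval of this gained share, 14.2 to 26.9%, includes the whole-list share of 14.6%. Prkg1 accounted for 16 of the gained sites with 4 lost, Glis3 gained 9 and lost 5, Ror1 gained 4 and lost none, and Gas7 gained 4 and lost 4. None of the 4 was called, against 3.14% of all genes called higher and 0.361% lower.

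In GFP+ cells the genes gained 28 and lost 14 of 84 sites. The gained share was 33.3% (interval 23.4 to 44.5%) against 21.6% over the whole list, and the lost share was 16.7% (interval 9.42 to 26.4%) against 11.2%. Gas7 held 7 of the 14 lost sites, and without it the lost share was 10.9%. Ror1, with 14 peaks with CTCF shRNA and 9 with control shRNA, was called higher (fold 1.56), against 8.76% of all genes called higher and 0.974% lower. That call ended when counts were divided by the length of the list. Glis3 had 19 peaks with CTCF shRNA and 14 with control shRNA, Prkg1 24 and 20, and Gas7 13 in each.

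The gained sites of the populations overlapped in part. The genes were chosen for sites gained in SSEA1+ cells, so the shares also gained there depend on that choice. They are a description only. Of the 33 sites gained in SSEA1-Thy1- cells, 25 (75.8%) were also gained in SSEA1+ cells, where they made up 19.4% of the 129. Over the whole list these shares were 38.9% and 17.1%. Of the 28 gained in GFP+ cells, 14 were also gained in SSEA1+ cells, which is 10.9% of the 129. The whole-list shares were 25.3% of the sites gained in GFP+ cells and 10.9% of those gained in SSEA1+ cells. For Thy1+ cells the shared sites were 6 of 29 (20.7%) and 6 of 129 (4.65%), against 10.0% and 5.95% over the whole list.

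Lists of different length change such counts, and the split of calls depends on it. With counts divided by list length, 373 genes were called higher and 528 lower in SSEA1+ cells, against 2295 higher and 23 lower as counted, and all 4 genes were still called higher. The same division gave 100 higher and 48 lower in Thy1+ cells (401 and 40 as counted), 93 and 50 in SSEA1-Thy1- cells (339 and 39), and 247 and 107 in GFP+ cells (728 and 81). At day 0 it gave 3 higher and 17 lower, against 23 and 17 as counted, although the lists held 154612 and 153962 peaks. The parts of list length and of the minimum difference in these changes were not tested. The division shifts every log2 ratio in SSEA1+ cells down by 0.44.

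At day 10, overexpressed CTCF was set against the day 10 control, and Smarca5 shRNA with overexpressed CTCF against overexpressed CTCF alone. Gas7 had 20 peaks with both, 10 with overexpressed CTCF alone and 14 with the day 10 control. Glis3 had 10, 9 and 12 in the same order, Ror1 3, 6 and 6, and Prkg1 12, 12 and 19. Only Gas7 had more peaks with both than in each of the other day 10 lists.

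With overexpressed CTCF the 4 genes gained 2 sites and lost 16 of 53, a lost share of 30.2% (interval 18.3 to 44.3%) against 15.3% over the whole list. Prkg1 lost 7 sites, of which 3 were listed with Smarca5 shRNA on overexpressed CTCF. It was called lower (fold 0.632), against 3.78% of all genes called lower and 1.54% higher. This call also ended with counts divided by list length, under which 90 genes were higher and 56 lower, against 82 and 202 as counted.

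With Smarca5 shRNA on overexpressed CTCF the genes gained 16 sites and lost 8 of 53, a gained share of 30.2% against 14.1% over the whole list. Without Gas7 the gained share was 18.2%. Gas7 was called higher (fold 2.0), against 3.7% of all genes called higher, and gained 10 sites and lost none. Of these 10, 4 were open with the day 10 control. They are the same 4 Gas7 sites that were lost with overexpressed CTCF, since both comparisons use the overexpressed CTCF list. Of the sites so lost, 2 of 4 in Glis3, 0 of 1 in Ror1 and 3 of 7 in Prkg1 were open with Smarca5 shRNA. No whole-list share was computed for this, and whether Smarca5 shRNA restores sites was not tested.

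Ror1 was called lower in that comparison (3 peaks against 6, fold 0.5), against 5.63% of all genes called lower. Its difference stood exactly at the minimum of 3 peaks. The call ended with division by list length, although the lists held 66321 and 67561 peaks. That division gave 193 genes higher and 115 lower, against 193 and 294 as counted. At start 2 of Prkg1 a peak centred 122 bp upstream was open with overexpressed CTCF and with the day 10 control. With Smarca5 shRNA added, the nearest peak was 51.1 kb away.

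At day 12, Smarca5 shRNA without overexpressed CTCF left counts close to those of control shRNA. Glis3 had 16 peaks with Smarca5 shRNA and 15 with control shRNA, Ror1 5 in each, Prkg1 11 in each and Gas7 11 and 10. The genes gained 5 sites and lost 3 of 46, and none was called, against 0.8% of all genes called higher and 0.222% lower.

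**Figure D5:**
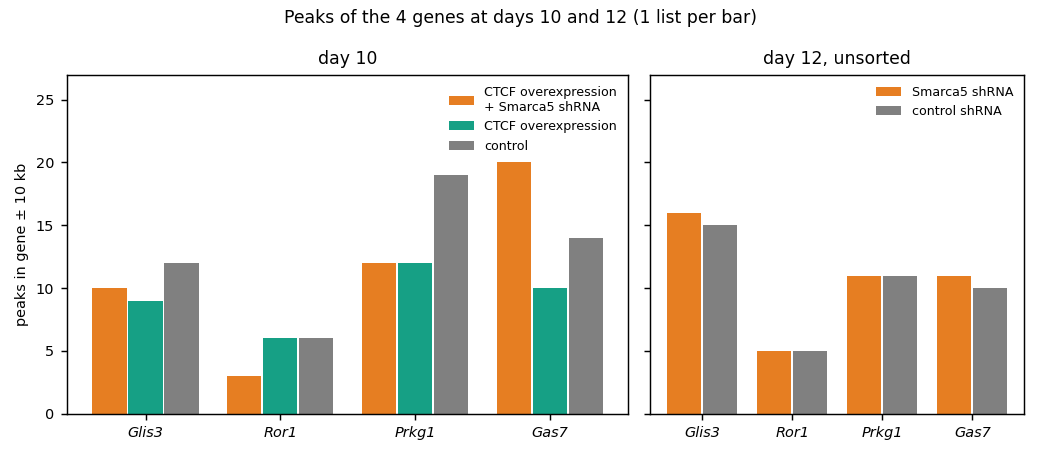
Number of peaks (y axis) in each of the 4 genes ± 10 kb in the unsorted day 10 and day 12 lists. Gas7 is highest with overexpressed CTCF plus Smarca5 shRNA (20 peaks, against 10 with overexpressed CTCF and 14 with the day 10 control), and the day 12 pairs differ by at most 1 peak.

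Genes of the same families and pathways were read beside the 4, from lists chosen with results of these data known. In SSEA1+ cells 3 of 9 measured GLI, GLIS and related genes were called higher and none lower, against 20.2% of all genes called higher. These were Glis1, a paralogue of Glis3 (34 peaks with CTCF shRNA and 18 with control shRNA), Gli2, a Hedgehog effector (29 and 19), and Sufu, which restrains GLI factors (18 and 11). Gli3 had 53 with CTCF shRNA and 37 with control shRNA and was not called. The median log2 ratio of peaks + 1 was 0.35, against 0.26 over all genes tested.

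Of 13 measured Wnt5a and Ror genes, 2 were called higher and none lower, again beside 20.2% of all genes. Ror2, the second Ror receptor, had 37 peaks with CTCF shRNA and 20 with control shRNA, and Cav1, which codes for a caveola protein, 11 and 7. Wnt5a itself, the ligand, had 10 with CTCF shRNA and 11 with control shRNA. Over all 14 listed genes, including Fzd2 with under 5 peaks, the median log2 ratio was 0.31. The value over all genes tested leaves such genes out, so the 2 are not on the same basis.

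Of 14 measured cGMP pathway genes, 3 were called higher and none lower. They were Pde3a, a phosphodiesterase (25 with CTCF shRNA and 12 with control shRNA), Mrvi1, a substrate of the kinase (11 and 5), and Kcnma1, a potassium channel (50 and 29). Of 14 F-BAR and growth-arrest genes, 4 were called higher: Gas2 (20 and 13), Pacsin2 (27 and 16), Pstpip1 (16 and 10) and Srgap3 (36 and 21). Over all 15 and 16 listed genes, including those under 5 peaks, both lists had a median log2 ratio of 0.26. The value over all genes tested was also 0.26, but it leaves out genes under 5 peaks. Of all genes tested, 20.2% were called higher.

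The genes with the most similar profiles were sought over the 10 day 0 and sorted lists by Pearson's r of log2(peaks + 1) among 2946 genes. For Glis3 they were Tnfaip8 (0.996), Ttll5 (0.995) and Dab2 (0.994), beside a median of 0.816 over all genes. Ror1 was nearest to Fam169b (0.993), Cald1 (0.991) and Denn2b (0.989), with a median of 0.690. For Prkg1 they were Antxr2 (0.996), Fgf13 (0.996) and Atp13a3 (0.994), with a median of 0.741, and for Gas7 Adamts12 (0.996), Itgbl1 (0.995) and Sntb2 (0.992), with a median of 0.759. The 4 genes correlated with each other at 0.949 to 0.980. The 10 lists include the SSEA1+ pair on which these genes were chosen, so their likeness partly follows from that choice. The lists share cultures and differ in length, so high values are common and no p is given.

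Fibroblast markers also had more peaks in the same pair. In SSEA1+ cells, 10 fibroblast genes had 97 peaks with CTCF shRNA and 49 with control shRNA. Of the 7 with enough peaks, 6 were called higher (Col1a2, Col3a1, Prrx1, Twist2, Pdgfra and Pdgfrb), against 20.2% of all genes tested. Thy1, the marker used in the sort, had 4 with CTCF shRNA and 2 with control shRNA. The fibroblast sum was 104 with CTCF shRNA and 106 with control shRNA in Thy1+ cells, and 101 and 95 at day 0.

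Pluripotency genes had 47 peaks with CTCF shRNA and 49 with control shRNA in SSEA1+ cells, and none was called. Epithelial genes had 38 with CTCF shRNA and 33 with control shRNA, neural genes 35 and 31, and smooth muscle genes 25 and 21. Haematopoietic genes had 42 with CTCF shRNA and 29 with control shRNA, with 2 of 5 called higher, and endothelial genes 42 and 26, with 2 of 4 called higher, against 20.2% of all genes called higher. Fut4, an enzyme that makes the SSEA1 epitope, had 1 with CTCF shRNA and 2 with control shRNA, and Pou5f1 had 7 in each. Of the peaks of the 4 genes in the SSEA1+ CTCF shRNA list, 192 of 209 (91.9%) were open in the Thy1+ control list, against 85.9% over the whole list. In their own SSEA1+ control list 38.3% of them were open, against 68.0% over the whole list. That last contrast was used to choose the 4 genes. The part of fibroblast-like cells within the SSEA1+ gate, and of list length, in the gained sites was not tested.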

How the data were processed

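ATAC-seq peak lists of 32 samples in 15 groups were used. Per the submitters' processing notes, the tools included MACS2, Bowtie2, cutadapt, Trim Galore, FastQC, Picard and SAMtools, with builds mm10 and GRCm38. Versions and settings were not given in the sources used here, nor was the way samples were pooled. The authors deposited 1 list per group, of 400 bp intervals whose score is 0 throughout, so peaks could not be ranked or filtered, and depth is unknown.

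Overlapping intervals of a list were merged, sites were shared at an overlap of at least 1 bp, and genes were RefSeq protein-coding genes of GRCm38.p6 with 10 kb on each side. Python 3.11.15, numpy 2.4.6, scipy 1.17.1 and matplotlib 3.10.9 were used, and the overlap code was tested on simulated data. No p-value was computed, since each group has 1 list. The 4 genes and all gene lists were chosen with earlier results of these data known. Named genes were the 4 genes, their neighbours by rank, position and profile, and the related and marker lists. Alternatives for shares were an overlap of at least 200 bp, 50 kb on each side and leaving out each gene. Those for gene calls were a fold of 2, a minimum of 1 or 20 peaks and division by list length. The gene body alone and unmerged intervals were used for both.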

Additional observations from a re-analysis of the deposited data

How the results depend on the processing

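No paired analysis was possible because each group has 1 pooled list, which carries no replicate number, and for the same reason no replicate could be left out. A stricter peak threshold was not run, since every score is 0. Shares over the 4 genes moved by less than their interval in 135 of 136 alternatives. The exception was the share gained with Smarca5 shRNA on overexpressed CTCF, which was 18.2% without Gas7. This count includes the SSEA1+ shares on which the genes were chosen. An overlap of at least 200 bp changed no share, and lists within a set share peak positions. Unmerged intervals and the gene body alone changed few sites, and leaving out 1 gene kept most of the same sites. A share staying within its interval under any of these settings therefore says little.

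Counts of all genes called, in either direction, depended more on the settings. In the order day 0, Thy1+, SSEA1-Thy1-, SSEA1+, GFP+, overexpressed CTCF, Smarca5 shRNA on overexpressed CTCF, and day 12, they were 40, 441, 378, 2318, 809, 284, 487 and 23. A fold of 2 gave 14, 125, 100, 865, 332, 111, 236 and 8. A minimum of 20 peaks gave 0, 19, 11, 502, 48, 4, 12 and 0. Division by list length gave 20, 148, 143, 901, 354, 146, 308 and 10. The gene body alone gave 25 at day 0, 267 in Thy1+ cells and 321 for Smarca5 shRNA on overexpressed CTCF, and stayed within 1.5 times elsewhere. Fewer genes are tested at a minimum of 20 peaks and with the gene body alone. With the gene body alone, the share of tested genes called was higher in every comparison, as in SSEA1+ cells (29.2% against 20.4%). At a minimum of 20 peaks it was higher in SSEA1+ cells (37.1%) and GFP+ cells (12.0% against 9.73%), and lower in the other comparisons. The cause was not tested for the other settings. Peak lists without depth limit every count.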
